A study of Mus musculus with 6 samples.

Results

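The Hox genes are the 39 mouse homeobox genes of the Hoxa, Hoxb, Hoxc and Hoxd clusters. They were taken as every protein-coding gene of the annotation whose symbol is a cluster name followed by a paralog number, and they are 39 of 35856 annotated genes with a target in the files. RNA was profiled in 6 mouse libraries of cells with a floxed Mdm2 allele and no p53 (Mdm2 fl/fl, p53-/-), 1 library for each pairing of 3 cell type labels with 2 arms. The arm labelled 4OHT, also labelled Mdm2 deletion, was given 4-hydroxytamoxifen (4-OHT, 1 mM as labelled), the drug that switches on the CreERT2 recombinase, for 48 h in fibroblasts and sarcoma and for 6 h in lymphoma. The arm labelled EtOH, also labelled control, was given ethanol vehicle for the same times. Fibroblasts came from ear punches of adult mice, and the T cell lymphoma and the sarcoma were short-term cultures of tumours that arose in such mice. Cells were infected with a retrovirus for CreERT2 and GFP or for GFP alone, and the labels do not say which of them a library carries, and a change tied to the deletion label cannot be told apart from one tied to the drug. Each group is 1 library, and nothing says that libraries are separate cultures beyond their cell type names, so every p-value measures only how far these libraries spread, which may be technical.

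Hox genes encode transcription factors whose homeodomain binds DNA and which give body regions their identity along the head-to-tail axis and along the limbs. Within a cluster the genes stand in the order of the regions that use them, from paralog position 1 at the 3′ end, used in the hindbrain, to position 13 at the 5′ end, used in the tail, the digits and the genital tubercle. Cells keep their Hox pattern in adult connective tissue and in culture, so that fibroblasts of different body sites differ in the Hox genes they express. Polycomb complexes hold silent Hox genes shut, Trithorax complexes keep active ones open, and retinoic acid acts on the 3′ genes in the embryo.

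The 4 clusters lie on 4 chromosomes of GRCm38. Hoxa has 11 genes on chromosome 6 (52155590 to 52260880, minus strand), Hoxb 10 on chromosome 11 (96194316 to 96368256, plus strand), Hoxc 9 on chromosome 15 (102921103 to 103036852, plus strand) and Hoxd 9 on chromosome 2 (74668310 to 74765142, plus strand). The third helix of the homeodomain lies in the major groove of DNA, and the 24 bases that encode its conserved core show how alike the paralogs are. This core was found in the annotated coding sequence of 35 of the 39 genes, in 28 different spellings, and not in the 4 genes of position 13. It is shown for 8 of the genes described most below, 5′ to 3′ on the coding strand, with capitals where a base differs from Hoxa9.
Hoxa9: tggttccagaaccgcaggatgaaa
Hoxa10: tggttTcagaaTcgcaggatgaaa
Hoxa7: tggttccagaaTcgGCgCatgaaG
Hoxb4: tggttccagaaTcgGCgCatgaaG
Hoxc4: tggttccaAaaccgTCgTatgaaa
Hoxc5: tggttccagaaccgcaggatgaaG
Hoxc6: tggttccagaaccgcCgCatgaaG
Hoxd8: tggttccagaacAgGagAatgaaa
Hoxc5 differed from Hoxa9 at 1 of the 24 bases, Hoxa10 at 2, Hoxc6 and Hoxd8 at 3, Hoxc4 at 4, and Hoxa7 and Hoxb4, which share 1 spelling, at 5. Outside such cores the genes could be told apart. Under 5% of the 31-base words of the coding targets were shared with another gene on the same strand in 36 of 39 genes. The exceptions were Hoxd4 with 55.6%, Hoxd11 with 21.1% and Hoxd10 with 7.55%, which share exons with read-through transcripts of their own cluster, so the split of their reads is uncertain.

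Libraries held 26243064 to 37517726 estimated counts. The most that a count of 0 was taken to allow, 3 counts, corresponds to 0.0797 to 0.113 CPM (counts scaled to library size, with TMM factors) in 1 library. RNA of the targeted gene, Mdm2, summed over its targets, was not lower in the arm labelled deleted. It had 30.5, 31.1 and 31.1 CPM in the fibroblast, lymphoma and sarcoma libraries labelled 4OHT and 28.4, 28.0 and 28.5 CPM in those labelled EtOH. Such a sum does not separate the exons, so it cannot show whether the floxed part was removed. Defining T cell markers were absent under the lymphoma label. The T cell genes Cd3d, Cd3e and Cd247 and the muscle genes Myod1, Myog, Myf5 and Ckm were at 0 counts in all 6 libraries, the T cell kinase gene Lck had 56 to 120 counts in every library, and 7 of 8 fibroblast markers reached 1 TPM, the deposited measure of transcript abundance, in every library. Groups are therefore named by their labels only, and values below are listed in the order fibroblast, lymphoma and sarcoma label.

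Most Hox genes that were on in any library were on in all of them, whatever the label. A gene is written as on in a library at 1 TPM or more, from the deposited TPM summed per gene. In all 6 libraries 16 genes were on, 3 (Hoxa3, Hoxc8 and Hoxd3) were on in some, and 20 were on in none. The number on was 17, 18 and 19 in the libraries labelled 4OHT, against 18, 17 and 16 in those labelled EtOH. Of the 20 that were on in none, 8 had 0 counts in every library (Hoxb1, Hoxb8, Hoxb9, Hoxc11, Hoxc12, Hoxc13, Hoxd1 and Hoxd12), and 5 reached 5 counts somewhere while staying under 1 TPM, among them Hoxa2, Hoxa4, Hoxc9 and Hoxd11. In each cluster the genes that were on in all libraries formed 1 unbroken run of neighbours.

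**Figure D1:**
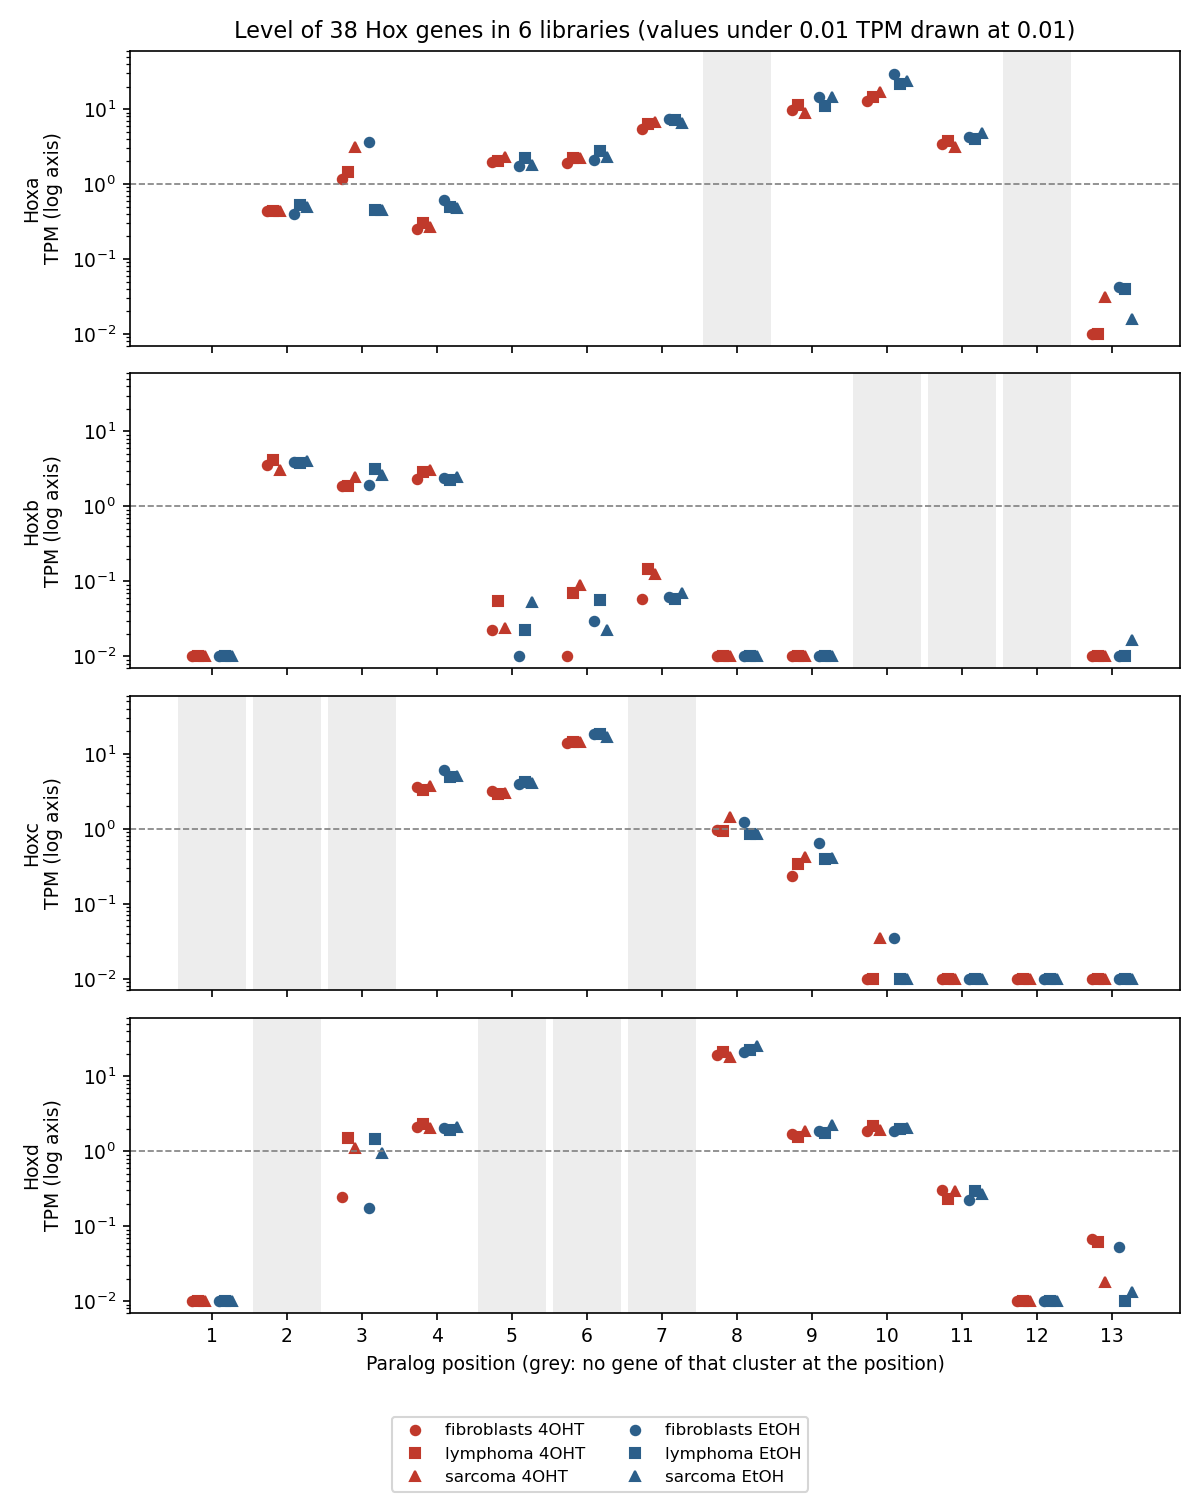
TPM of 38 of the 39 Hox genes (log axis) against its paralog position, 1 panel per cluster, with the 3 libraries labelled 4OHT (red) left of the 3 labelled EtOH (blue) and a symbol for each cell type label. The dashed line marks 1 TPM, grey bands mark positions with no gene in a cluster, and values under 0.01 TPM are drawn at 0.01. The blocks Hoxa5 to Hoxa11, Hoxb2 to Hoxb4, Hoxc4 to Hoxc6 and Hoxd8 to Hoxd10 with Hoxd4 lie above it in every library, while Hoxa3, Hoxc8 and Hoxd3 have libraries on both sides of it.

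In the Hoxa cluster the middle and the 5′ genes were on and the last gene was not. Hoxa5, a gene of the neck and lung region, stood at 1.96, 2.04 and 2.30 TPM in the libraries labelled 4OHT, against 1.74, 2.21 and 1.80 TPM in those labelled EtOH. Hoxa7, a thoracic gene, stood at 5.37, 6.36 and 6.79 TPM under the 4OHT label, against 7.35, 7.26 and 6.60 TPM under the EtOH label. Both genes overlapped between the arms. At the 3′ end Hoxa2 lay at 0.399 to 0.529 TPM on 24 to 41 counts in the 6 libraries; in the mouse embryo Hoxa2 specifies the second pharyngeal arch, from which much of the outer ear forms. At the 5′ end the block stopped between Hoxa11, a forearm gene with 160 to 324 counts, and Hoxa13, a digit gene with 0 to 2 counts, whose bodies are 11.9 kb apart.

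The Hoxb cluster was on at 3 neighbouring genes near its 3′ end. Hoxb2, a hindbrain gene of whose 31-base words 52.2% are found in other genes on the opposite strand, lay at 3.05 to 4.16 TPM, Hoxb3 at 1.85 to 3.20 TPM and Hoxb4, which is also known from blood stem cells, at 2.29 to 3.09 TPM. The block had an edge on both sides. Hoxb1, 11.7 kb away from Hoxb2, had 0 counts in every library, where Hoxb2 had 179 to 323. Hoxb5, 12.1 kb away from Hoxb4, had 0 to 3 counts, where Hoxb4 had 91 to 127. Hoxb5 to Hoxb13 had at most 4 counts in any library.

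The Hoxc cluster was on over Hoxc4 to Hoxc6 and tapered beyond them. Hoxc6, a thoracic gene, was the highest of the cluster with 13.97, 14.3 and 14.3 TPM in the libraries labelled 4OHT, against 18.2, 18.3 and 16.95 TPM in those labelled EtOH. Hoxc8, which patterns the thorax and the motor neurons of the forelimb, lay near the 1 TPM line at 0.971, 0.940 and 1.42 TPM under the 4OHT label, against 1.25, 0.845 and 0.851 TPM under the EtOH label. It crossed the line in 1 library of each arm, the sarcoma 4OHT and the fibroblast EtOH library. Hoxc9 lay at 0.233 to 0.643 TPM on 10 to 26 counts, and Hoxc10 to Hoxc13 had at most 2 counts.

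The Hoxd cluster was on at Hoxd4 and at Hoxd8 to Hoxd10. Hoxd8, a trunk gene, stood at 19.5, 21.4 and 18.0 TPM in the libraries labelled 4OHT, against 21.2, 22.3 and 25.6 TPM in those labelled EtOH. Hoxd4, a neck gene, lay at 1.94 to 2.34 TPM, Hoxd9 at 1.53 to 2.21 TPM and Hoxd10, a gene of the lumbar cord and the limbs, at 1.85 to 2.17 TPM. These 3 genes lay below Hoxd8 in every library. Hoxd11 lay at 0.223 to 0.307 TPM on 11.1 to 19.9 counts, and Hoxd13, the other main digit gene, had 0 to 4 counts.

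Each of the paralog positions 2 to 11 held at least 1 gene that was on in all libraries, and positions 12 and 13 held none. Values here are TPM summed over the paralogs of a position. Position 10 (Hoxa10, Hoxc10 and Hoxd10) held 16.7 ± 1.98 TPM in the arm labelled 4OHT and 26.9 ± 3.85 TPM in the arm labelled EtOH (SD, n = 3 libraries each). Position 8 held 20.7 ± 1.47 TPM under the 4OHT label and 24.01 ± 2.14 TPM under the EtOH label, most of it from Hoxd8. Position 6 held 16.4 ± 0.428 and 20.3 ± 0.925 TPM in the same order, most of it from Hoxc6. Position 12 was listed at 0, and position 13 summed to 0.0398 to 0.0955 TPM. By cluster, Hoxa held 42.0% ± 1.76 of the Hox TPM under the 4OHT label and 45.8% ± 3.35 under the EtOH label, Hoxd 26.9% ± 1.82 and 24.1% ± 2.78, Hoxc 22.4% ± 1.25 and 22.9% ± 1.19, and Hoxb 8.67% ± 0.242 and 7.20% ± 0.781.

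The order of the leading genes depended on how length was taken into account. By mean TPM over the 6 libraries the order was Hoxd8 (21.3 TPM), Hoxa10 (19.8 TPM), Hoxc6, Hoxa9 (11.7 TPM) and Hoxa7 (6.62 TPM). The ranges of the first 3 overlapped. By CPM per kilobase of the longest coding target, a scale added after seeing the TPM, the order was Hoxc6 (28.2 CPM per kb), Hoxa9 (18.1), Hoxd8 (16.7), Hoxa7 (11.0) and Hoxa10 (7.68). The files count coding sequence only for nearly all protein-coding targets, and some annotated coding stretches are short fragments. For Hoxa10, its shorter target (Hoxa10-201) held 45.2% to 59.3% of the counts of the gene and 87.7% to 92.8% of its TPM. For Hoxd8, the target of 324 bases (Hoxd8-203) held 34.8% to 45.3% of the counts and 70.0% to 78.3% of the TPM.

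The same effect decided which library showed Hoxa3 and Hoxd3 as on. Hoxa3 had 25, 28 and 30 counts in the libraries labelled 4OHT, against 46, 36 and 46 in those labelled EtOH, yet its TPM was 1.18, 1.44 and 3.08, against 3.65, 0.444 and 0.449. Up to 88.0% of that TPM stood on a target of 79 bases (Hoxa3-202) to which at most 5.86% of the counts of the gene were assigned. Hoxd3 had 16, 25 and 23 counts and 0.243, 1.496 and 1.12 TPM in the libraries labelled 4OHT, against 13, 22 and 29 counts and 0.174, 1.44 and 0.954 TPM in those labelled EtOH, with up to 85.2% of the TPM on a target of 203 bases. With targets under 300 bases left out, both genes were on in no library, with at most 0.566 TPM for Hoxa3 and 0.344 TPM for Hoxd3, and the 16 genes on in every library were the same 16.

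**Figure D2:**
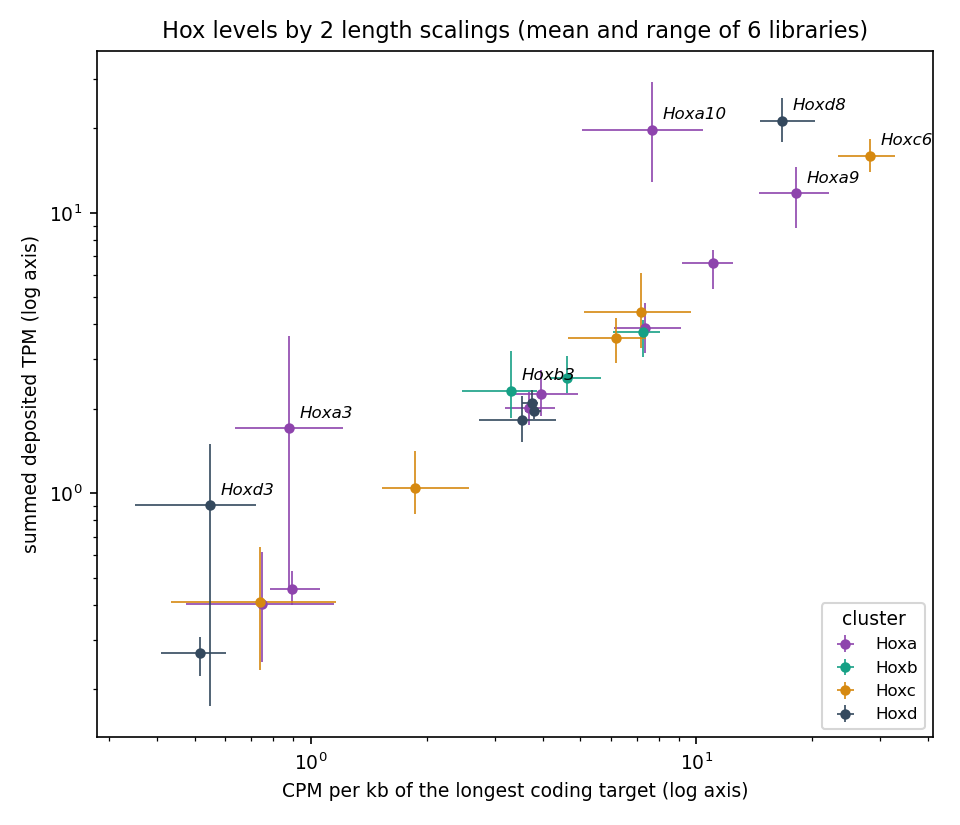
Mean summed TPM against mean CPM per kb of the longest coding target (both log axes) of 23 of the 24 Hox genes with 5 or more counts in some library, by cluster, with bars for the range over the 6 libraries. Most genes lie along 1 line. Hoxa10 (19.8 TPM, 7.68 CPM per kb), Hoxd8, Hoxa3 and Hoxd3 lie above it, and Hoxa3 and Hoxd3 have the widest TPM range.

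No Hox gene differed between the cell type labels past the threshold. Of the 24 Hox genes tested, edgeR called 0 for lymphoma over fibroblasts, 0 for sarcoma over fibroblasts and 0 for sarcoma over lymphoma (Benjamini-Hochberg adjusted p under 0.05 over all 15933 genes tested). At an unadjusted edgeR p under 0.05 the counts were 2, 0 and 2 of 24, beside 576, 1116 and 1721 of the 15933 genes tested. On 18 to 31 Hox genes, limma called 0 in each contrast. DESeq2 called 0 of 31 for lymphoma over fibroblasts and 0 of 25 for sarcoma over fibroblasts, and for sarcoma over lymphoma it gave no Hox gene an adjusted p. Few genes of any kind were called in these contrasts, 0.00628%, 0.301% and 0.22% of those tested. The largest estimate was that of Hoxd3 for lymphoma over fibroblasts, where Hoxd3 had 13 to 29 counts in a library and the log2 fold change was 0.74 ± 0.32 (SE, edgeR adjusted p = 1). For sarcoma over lymphoma it was that of Hoxd9, 0.38 ± 0.14 (SE, edgeR adjusted p = 0.352). The median absolute log2 fold change over the 24 genes was 0.10 for lymphoma over fibroblasts, 0.09 for sarcoma over fibroblasts and 0.07 for sarcoma over lymphoma. Across the 24 genes, the SD of the log2 difference between 2 libraries was 0.245 to 0.327 for libraries of 1 cell type label and different arms, and 0.138 to 0.227 for libraries of 1 arm and different cell type labels. Over all tested genes the same SDs were 0.51 to 0.526 and 0.177 to 0.21.

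Between the arms, part of the tested Hox genes were called lower in the libraries labelled 4OHT, and none was called higher. The 15 genes left out by the filter on low counts had at most 4 counts in a library. Of the 24 tested, edgeR called 10 lower (among them Hoxa4, Hoxa9, Hoxa10, Hoxa11, Hoxb3, Hoxc4, Hoxc5, Hoxc6 and Hoxd8), 0 higher and 14 not at all, where 24.6% of the 15933 genes tested were called lower, 25.0% higher and 49.6% either way. At an unadjusted p under 0.05 the same fit also gave 0 higher, as did DESeq2 and limma at their adjusted p. DESeq2 called 4 of 24 Hox genes lower, where it called 14.4% of all genes lower, a share near that of the Hox genes. On log2(TPM + 1) limma called 2 of 18 lower, where it called 6.49% of all genes lower, 3 of 18 on log2(TPM + 0.1), where it called 6.38%, and 0 of 31 on log2(TPM + 1) without a filter, where it called 1.24%. The median log2 fold change of the 24 genes was -0.24, beside 0.015 over all genes tested. In 11 of the 24 all 3 libraries labelled 4OHT lay below all 3 labelled EtOH, and in 0 of them above, where 27.8% and 27.7% of all genes tested did so. By cluster, 5 of 10 tested Hoxa genes, 1 of 3 Hoxb genes, 3 of 5 Hoxc genes and 1 of 6 Hoxd genes were lower. The Hox TPM summed to 93.4, 103 and 102 in the libraries labelled 4OHT, against 131, 119 and 126 in those labelled EtOH. Of these sums Hoxa10-201 alone held 11.3, 13.3 and 15.2 TPM, against 27.2, 19.85 and 21.6 TPM. Fibroblast markers moved the same way: 6 of the 7 tested were lower, and the list summed to 8044 to 8213 CPM under the 4OHT label and 13680 to 14170 CPM under the EtOH label. The T cell list, with 10 of 12 genes on in no library, summed to 64.5 to 70.5 CPM under the 4OHT label and 93.9 to 99.6 CPM under the EtOH label. Thy1, which fibroblasts also express, made up most of that sum and was lower, while Lck, the other T cell gene tested, was higher with 120, 98 and 114 counts under the 4OHT label, against 58, 56 and 81 under the EtOH label. Lists at lower levels lay the other way. The macrophage list summed to 6.54 to 8.20 CPM against 4.59 to 5.204 CPM, the chondrocyte list to 21.9 to 22.8 CPM against 16.3 to 18.0 CPM, the Schwann cell and melanocyte list to 12.8 to 14.8 CPM against 9.15 to 9.85 CPM, and the endothelial list to 0.916 to 1.37 CPM against 0.175 to 0.292 CPM. The epithelial and the muscle list stayed under 0.9 CPM in every library. The part of these markers in the Hox result was not tested, and in such bulk RNA fewer cells of a type and less RNA per cell cannot be told apart.

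**Figure D3:**
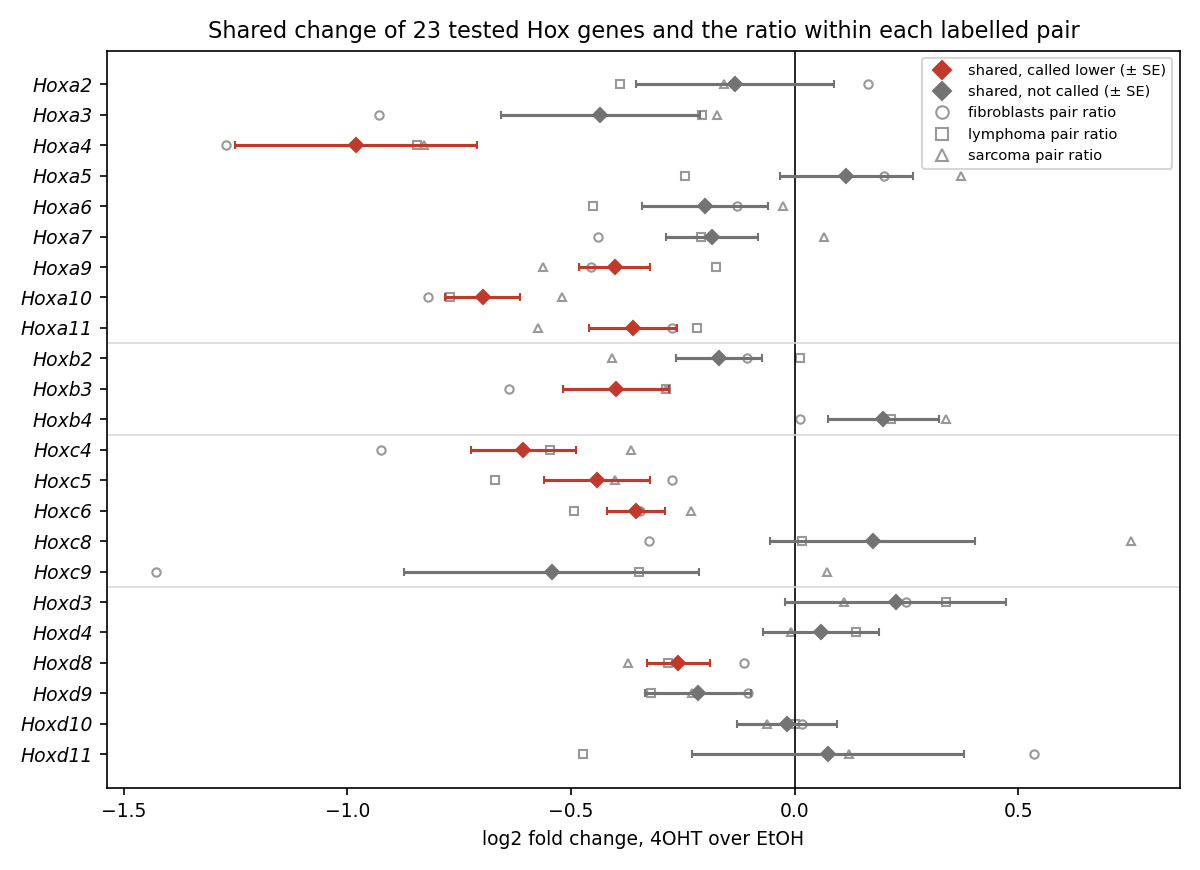
Shared log2 fold change, 4OHT over EtOH, of 23 of the 24 tested Hox genes in cluster order (diamonds with SE bars, red where called lower), with the log2 ratio of plain CPM within each labelled pair as open symbols. The 9 called genes shown run from -0.98 (Hoxa4) to -0.26 (Hoxd8), and the 14 others lie on both sides of 0.

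Hoxa10, which patterns the lumbar region and the uterus, had the smallest p of the 24 genes tested. It had 7.40, 6.31 and 8.27 CPM in the libraries labelled 4OHT, against 13.1, 10.8 and 11.9 CPM in those labelled EtOH, with no overlap of the arms. Its log2 fold change was -0.70 ± 0.08 (SE, edgeR adjusted p = 3.9e-05). Both of its coding targets followed. Hoxa10-201 had 3.34, 3.57 and 4.48 CPM under the 4OHT label, against 7.75, 5.87 and 6.27 CPM under the EtOH label, and Hoxa10-202, the target of 1251 bases, had 4.06, 2.74 and 3.79 CPM, against 5.31, 4.90 and 5.597 CPM. The targets overlap in sequence, so the split between them is an estimate of kallisto.

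Its neighbours Hoxa9 and Hoxa11 fell as well. Hoxa9, known from limb patterning and from blood progenitors, had 13.2, 13.2 and 11.9 CPM in the libraries labelled 4OHT, against 18.1, 14.95 and 17.5 CPM in those labelled EtOH (log2 fold change -0.40 ± 0.08, SE, edgeR adjusted p = 0.00129). Hoxa11 had 6.21, 6.24 and 5.78 CPM under the 4OHT label, against 7.51, 7.26 and 8.60 CPM under the EtOH label (-0.36 ± 0.10, edgeR adjusted p = 0.0094). For both genes the arms did not overlap, and the gap was smallest in the lymphoma pair. Without either sarcoma library Hoxa11 was no longer called.

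Hoxa4, towards the 3′ end, also fell, at a low level. It had 12, 12 and 12 counts in the libraries labelled 4OHT, against 28, 24 and 29 in those labelled EtOH (log2 fold change -0.98 ± 0.27, SE, edgeR adjusted p = 0.0105). Its arms did not overlap in CPM either. Hoxa4 lost its call without either fibroblast library and with DESeq2. Hoxa3 lay lower in all 3 pairs as well, at 0.848, 1.05 and 1.084 CPM under the 4OHT label against 1.61, 1.22 and 1.22 CPM under the EtOH label, without passing the test (-0.43 ± 0.22, edgeR adjusted p = 0.129). Hoxa6, a thoracic gene, had 2.38, 2.52 and 2.82 CPM under the 4OHT label, against 2.60, 3.44 and 2.87 CPM under the EtOH label (-0.20 ± 0.14, edgeR adjusted p = 0.266). Like Hoxa2, Hoxa5 and Hoxa7, it overlapped between the arms and was not called.

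The 3 Hoxc genes at the 3′ end fell together. Hoxc4, a gene of the neck region, had 4.07, 4.43 and 5.09 CPM in the libraries labelled 4OHT, against 7.72, 6.48 and 6.56 CPM in those labelled EtOH (log2 fold change -0.61 ± 0.12, SE, edgeR adjusted p = 0.0012). Hoxc5 had 3.83, 3.12 and 3.58 CPM, against 4.63, 4.96 and 4.73 CPM (-0.44 ± 0.12, edgeR adjusted p = 0.0093). Hoxc6 had 17.8, 16.5 and 18.2 CPM, against 22.7, 23.2 and 21.4 CPM (-0.35 ± 0.07, edgeR adjusted p = 0.000878). In each of the 3 genes every library labelled 4OHT lay below every library labelled EtOH. Hoxc5 lost its call without either lymphoma library. Hoxc8 and Hoxc9 were not called, and Hoxc9 spread from 10 to 17 counts under the 4OHT label and from 17 to 26 under the EtOH label.

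Hoxb and Hoxd each had 1 called gene. Hoxb3 had 3.22, 3.87 and 4.05 CPM in the libraries labelled 4OHT, against 5.02, 4.73 and 4.94 CPM in those labelled EtOH (log2 fold change -0.40 ± 0.12, SE, edgeR adjusted p = 0.0148), and it lost its call without either fibroblast library. Of its 31-base words 62.8% are found in other genes on the opposite strand, so its count depends on strand being used in counting, which the sources used here do not state. Hoxd8 had 13.3, 12.7 and 13.7 CPM, against 14.4, 15.5 and 17.7 CPM (-0.26 ± 0.07, edgeR adjusted p = 0.00937), and lost its call without either sarcoma library or the lymphoma 4OHT library. Beside them Hoxb4 had 3.22, 3.64 and 4.26 CPM under the 4OHT label and 3.19, 3.14 and 3.37 CPM under the EtOH label (0.20 ± 0.12, edgeR adjusted p = 0.208), and Hoxd10 had 3.73, 3.98 and 3.87 CPM and 3.69, 3.98 and 4.04 CPM (-0.02 ± 0.11, edgeR adjusted p = 0.916). Hoxb4 and Hoxd10 thus overlapped between the arms and were not called. Hoxb2 (-0.17 ± 0.10), Hoxd4 (0.06 ± 0.13) and Hoxd9 (-0.22 ± 0.12, log2 fold changes with SE) were not called either. Whether these changes differ from those of Hoxb3 and Hoxd8 was not tested.

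**Figure D4:**
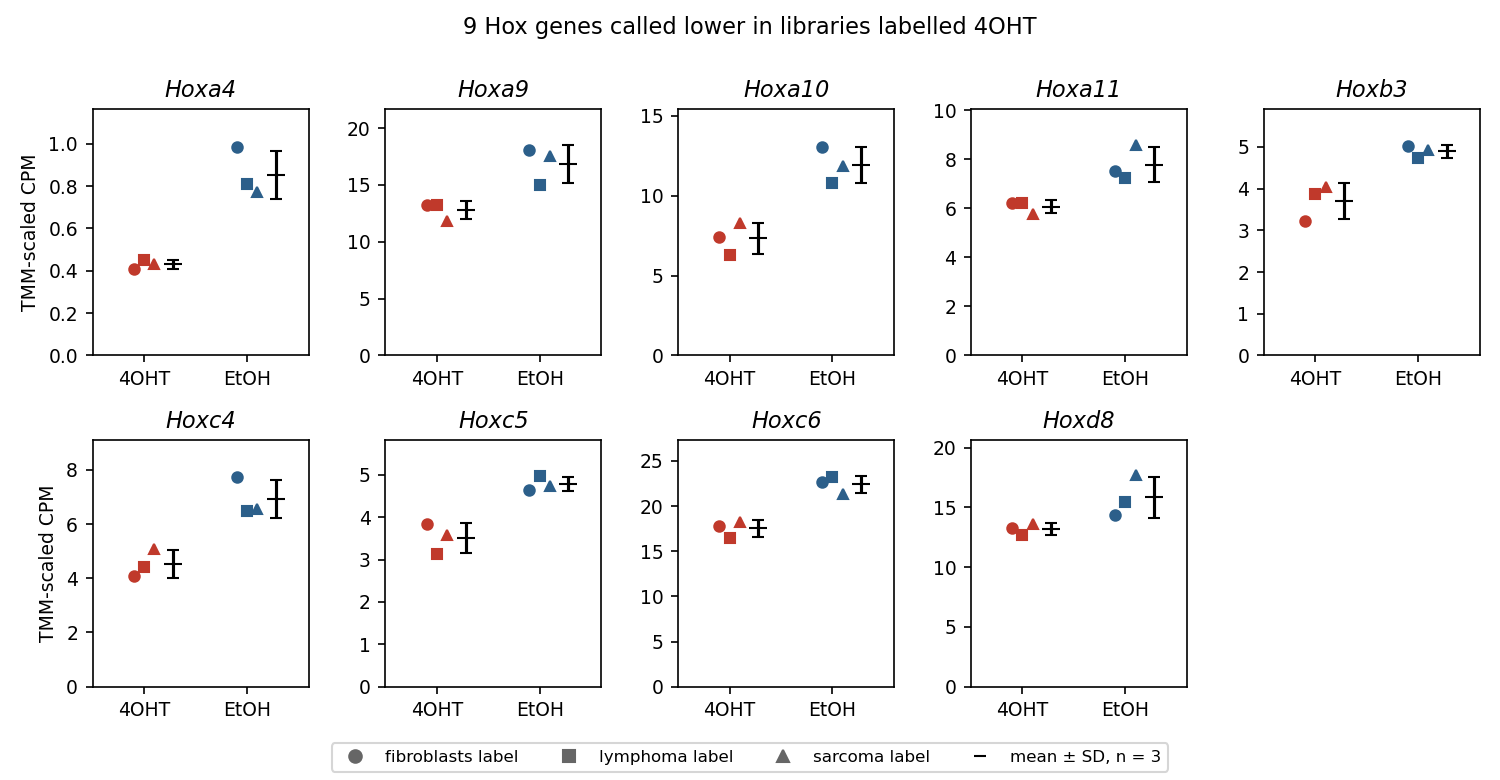
TMM-scaled CPM in each library of 9 of the 10 Hox genes called lower, with the 3 libraries labelled 4OHT (red) left of the 3 labelled EtOH (blue), a symbol for each cell type label, and the mean with its SD (n = 3) in black. In all 9 genes the red points lie below the blue ones.

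Within the labelled pairs, 17 of the 24 tested genes were lower in the 4OHT library in the fibroblast pair, 18 in the lymphoma pair and 17 in the sarcoma pair, where 49.9%, 49.4% and 48.3% of all genes tested were lower. With 1 library a group these ratios have no test, and their 95% Clopper-Pearson intervals cover counting error only. The interval lay below a ratio of 1 for 9, 6 and 8 genes, and above 1 for Hoxc8 in the sarcoma pair alone. The share of all genes tested with such an interval was not computed, so these counts cannot be set against it. Hoxa10 had ratios of 0.566 (interval 0.477 to 0.671), 0.586 (0.483 to 0.709) and 0.697 (0.592 to 0.819), and Hoxc6 had 0.787 (0.700 to 0.884), 0.710 (0.629 to 0.802) and 0.852 (0.761 to 0.953). Hoxc8 had 0.798 (0.505 to 1.25), 1.01 (0.596 to 1.71) and 1.68 (1.10 to 2.59). The lymphoma pair was exposed for 6 h and the other pairs for 48 h, and the median log2 ratio of the 24 genes, on CPM plus 0.5, was -0.24 in the fibroblast, -0.22 in the lymphoma and -0.16 in the sarcoma pair. None of the 24 genes changed by 2-fold on that scale in any pair. On plain CPM 2 genes of low count did in the fibroblast pair, Hoxa4 with a ratio of 0.414 (interval 0.192 to 0.841) and Hoxc9 with a ratio of 0.372 (interval 0.16 to 0.797).

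Of 41 noncoding genes inside the clusters 13 were tested, 3 were lower and 1 was higher, where 24.6% of all genes tested were lower and 25.0% higher, so the share that fell is near that of all genes. Hoxa11os, which lies opposite Hoxa11, had 11.6, 10.2 and 11.0 CPM in the libraries labelled 4OHT, against 14.9, 15.3 and 14.9 CPM in those labelled EtOH (log2 fold change -0.45 ± 0.07, SE, edgeR adjusted p = 0.000259). Hoxb3os had 5.09, 4.36 and 4.91 CPM, against 6.81, 7.02 and 6.61 CPM (-0.51 ± 0.10, edgeR adjusted p = 0.00139). In Hoxa11, 74.8% of the 31-base words are found in other genes on the opposite strand. Without strand in the counting, reads of Hoxa11 and Hoxa11os, or of Hoxb2, Hoxb3 and Hoxb3os, cannot be told apart. Gm27817, annotated as a miscellaneous RNA in Hoxa, had 7 counts in each library labelled 4OHT, against 13, 17 and 16 in those labelled EtOH (-0.93 ± 0.34, edgeR adjusted p = 0.04). It lost that call in 9 of 13 alternatives, among them DESeq2 and leaving out any 1 library. Hotairm1, at the 3′ end of Hoxa, lay at 2.44 to 2.88 CPM and was not called, and Hotair, the long noncoding RNA of the silent part of Hoxc, had 0 counts in all 6 libraries.

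The long noncoding RNA Gm53 was the exception in the silent part of Hoxb. It lies between Hoxb13 and Hoxb9, and it had 213.8, 213.7 and 197.1 counts in the libraries labelled 4OHT, against 175.8, 127.5 and 260.7 in those labelled EtOH, where Hoxb9 and Hoxb8 had 0 and Hoxb13 at most 1. In CPM it was higher under the 4OHT label (7.26, 8.04 and 7.12 CPM, against 6.18, 4.32 and 6.93 CPM, log2 fold change 0.36 ± 0.14, SE, edgeR adjusted p = 0.0485), and it lost that call without either lymphoma library, without the cell type block, with DESeq2 and with limma. Outside the clusters, 16 protein-coding genes flank them, of which 10 were tested, 2 were lower (Calcoco1 and Cbx5, beside Hoxc) and 1 was higher (Lnpk, beside Hoxd), which is no more than the 24.6% and 25.0% of all genes tested. Lnpk lost its call in 9 of 14 alternatives, among them DESeq2 and leaving out any 1 fibroblast or lymphoma library. Evx1 and Evx2, the homeobox genes just beyond position 13 of Hoxa and Hoxd, had 0 counts, while Skap2, beyond the 3′ end of Hoxa, and Mtx2, beyond that of Hoxd, lay at 29.6 to 34.5 CPM and 51.1 to 55.9 CPM with no call.

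Of the genes that work with HOX proteins some fell and none rose. Of the 9 PBX, MEIS and PKNOX cofactors, which bind DNA together with HOX proteins, 5 were lower, 0 higher and 4 not called, with a median log2 fold change of -0.28 beside the 0.015 over all genes. Pknox2 had 4.44, 4.43 and 5.02 CPM in the libraries labelled 4OHT, against 7.93, 7.33 and 7.22 CPM in those labelled EtOH (-0.69 ± 0.10, SE, edgeR adjusted p = 0.000149). Meis1, a partner of HOXA9, had 5.90, 5.94 and 6.90 CPM, against 9.02, 8.27 and 9.16 CPM (-0.50 ± 0.09, edgeR adjusted p = 0.000581). Pbx2, Pbx3 and Pknox1 were the other 3 called lower, and Pbx3 and Pknox1 lost their call with DESeq2 and without any 1 fibroblast or lymphoma library. Over all genes tested 24.6% were lower.

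Of 23 Polycomb genes 7 were lower, 6 higher and 10 not called, with a median log2 fold change of -0.09, which is near the 24.6% lower and 25.0% higher of all genes tested. Among the lower ones were Ezh1, a histone H3 lysine methyltransferase (-0.50 ± 0.06, SE, edgeR adjusted p = 2.39e-05), and Cbx8, which reads that mark (-0.54 ± 0.07, edgeR adjusted p = 0.000116). Among the higher ones were Suz12, a core subunit of the same enzyme (0.30 ± 0.04, edgeR adjusted p = 7.03e-05), and Phc2, a subunit that joins Polycomb complexes to each other (0.43 ± 0.05, edgeR adjusted p = 2.09e-05). Of 10 Trithorax and demethylase genes 3 were lower, 2 were higher (Kmt2a and Wdr5) and 5 were not called, again near those shares. Kmt2a lost its call without either sarcoma library. All the Polycomb and Trithorax genes listed were at 1 TPM or more in every library.

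Of 16 genes of retinoid handling 13 were tested, 6 were lower and 3 higher, beside 24.6% lower and 25.0% higher over all genes tested. Crabp1, which binds retinoic acid in the cytoplasm, had 753.2, 722.1 and 760.8 CPM in the libraries labelled 4OHT, against 1217, 1195 and 1305 CPM in those labelled EtOH (log2 fold change -0.73 ± 0.04, SE, edgeR adjusted p = 1.08e-07). Rara, a retinoic acid receptor, had 17.3, 19.6 and 20.3 CPM, against 25.6, 27.3 and 27.6 CPM (-0.49 ± 0.06, edgeR adjusted p = 2.63e-05). Both stand among the lower genes. The higher ones were Crabp2 (0.73 ± 0.10, edgeR adjusted p = 9.69e-05), which carries retinoic acid to its receptor, and the retinoic acid degrading enzymes Cyp26a1 and Cyp26b1. Cyp26a1 had 18, 19 and 18 counts under the 4OHT label, against 0, 1 and 0 under the EtOH label (edgeR adjusted p = 3.1e-05), and Cyp26b1 had 29, 35 and 29 counts, against 15, 12 and 12 (edgeR adjusted p = 0.00113).

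Other transcription factors of body position were listed beside the Hox genes. Of 17 limb and trunk genes 11 were tested, 7 were lower and 1 higher, beside the same 24.6% and 25.0%. Tbx15, a gene of trunk skin and of the shoulder blade, had 128.5, 135.1 and 121.3 CPM in the libraries labelled 4OHT, against 176.7, 171.6 and 171.9 CPM in those labelled EtOH (log2 fold change -0.44 ± 0.05, SE, edgeR adjusted p = 1.15e-05). The hindlimb genes Tbx4 and Pitx1 and the dorsal limb gene Lmx1b had 0 counts in all 6 libraries, and the forelimb gene Tbx5 had 0 to 5. Of 26 head and pharyngeal arch genes 10 were tested, 3 were lower, among them Dlx1 and Dlx2, 3 were higher, among them Six4 and Dlx6, and 6 had 0 counts in all libraries (Alx1, Alx4, Six2, Eya1, Otx2 and Hand1), while 16 were at 1 TPM in none. Dlx1, Dlx2, Six4 and Dlx6 lost their calls with DESeq2. Dlx6 had 70.2, 9 and 377 counts under the 4OHT label, against 91, 10 and 63 under the EtOH label, so its call rests on the sarcoma pair. Its log2 fold change was -0.37 without the sarcoma 4OHT library and -0.38 without the sarcoma EtOH library. The Cdx genes, which switch on trunk Hox genes in the embryo, and the ParaHox genes were at 1 TPM in no library.

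RefSeq promoters of the GRCm38.p6 assembly, 250 bases before to 50 after a gene start, were listed for 22 of the 39 genes, 24 promoters in all. They held a median of 14.5 CpG dinucleotides, beside 7 over all 32851 promoters of the table. The 13 promoters of genes that were on in all libraries had 4 to 29 CpG (median 14) and the 11 others 4 to 45 (median 20), so the ranges overlap. The word TGATNNAT, which PBX and HOX proteins bind together, was searched on both strands and found in 4 of the 24 (Hoxa2, Hoxb1, Hoxb8 and Hoxd11), 16.7%, beside 8.85% of all promoters. Such a match is a description of the letters. Hoxa9, Hoxa10, Hoxa11 and Hoxa13 are shown because they span the 5′ edge of the Hoxa block, and both starts of Hoxa10 because both of its targets lay lower under the 4OHT label. Each is written 5′ to 3′ on the minus strand with CpG in capitals.
Hoxa9, chr6:52227321-52227620, 4 CpG: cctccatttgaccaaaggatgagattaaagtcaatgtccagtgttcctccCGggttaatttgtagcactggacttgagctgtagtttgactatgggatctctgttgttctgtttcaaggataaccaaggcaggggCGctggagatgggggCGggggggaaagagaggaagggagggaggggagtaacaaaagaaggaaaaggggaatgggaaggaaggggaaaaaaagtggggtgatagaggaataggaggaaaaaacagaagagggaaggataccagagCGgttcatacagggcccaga
Hoxa10, start of Hoxa10-202, chr6:52234890-52235189, 21 CpG: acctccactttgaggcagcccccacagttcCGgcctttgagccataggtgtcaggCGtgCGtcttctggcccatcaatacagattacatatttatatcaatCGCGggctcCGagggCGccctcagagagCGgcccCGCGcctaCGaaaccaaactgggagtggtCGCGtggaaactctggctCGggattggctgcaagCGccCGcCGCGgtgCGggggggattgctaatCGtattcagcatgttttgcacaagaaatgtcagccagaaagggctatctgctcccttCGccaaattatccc
Hoxa10, start of Hoxa10-201, chr6:52240805-52241104, 12 CpG: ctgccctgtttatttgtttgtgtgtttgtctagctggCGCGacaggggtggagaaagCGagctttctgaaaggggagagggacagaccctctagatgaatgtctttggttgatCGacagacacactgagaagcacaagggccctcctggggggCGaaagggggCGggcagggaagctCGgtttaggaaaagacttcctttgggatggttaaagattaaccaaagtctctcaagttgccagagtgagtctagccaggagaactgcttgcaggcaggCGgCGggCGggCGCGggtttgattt
Hoxa11, chr6:52245761-52246060, 15 CpG: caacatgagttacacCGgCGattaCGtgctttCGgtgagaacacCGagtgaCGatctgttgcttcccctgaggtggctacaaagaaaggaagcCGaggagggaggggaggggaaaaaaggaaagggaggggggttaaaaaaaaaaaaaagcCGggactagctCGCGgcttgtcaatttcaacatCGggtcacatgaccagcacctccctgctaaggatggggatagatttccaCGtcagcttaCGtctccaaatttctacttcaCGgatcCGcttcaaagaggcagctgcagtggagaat
Hoxa13, chr6:52260831-52261130, 45 CpG: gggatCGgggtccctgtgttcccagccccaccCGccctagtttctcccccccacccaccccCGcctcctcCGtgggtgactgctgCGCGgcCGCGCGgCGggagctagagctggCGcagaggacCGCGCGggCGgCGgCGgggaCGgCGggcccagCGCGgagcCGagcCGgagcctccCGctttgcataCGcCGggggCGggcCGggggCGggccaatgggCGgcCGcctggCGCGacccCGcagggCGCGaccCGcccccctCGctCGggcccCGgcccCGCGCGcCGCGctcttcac
A high and a low number of CpG occurred both in genes that were on and in genes that were not. Hoxa5, on in all libraries, had 29 CpG, and Hoxd11, on in none, had 4 in one of its promoters and 25 in the other.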

How the data were processed

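RNA was measured by total RNA sequencing after ribosomal RNA depletion with a stranded kit, per the labels' protocols, in 6 libraries of 3 cell type labels and 2 arms. The authors deposited estimated counts and TPM per target from kallisto 0.43.0 on GRCm38, per the submitters' processing notes. Which transcript set and strand setting were used is not given in the sources used here. Targets were joined by identifier to GENCODE M21 (75049 of 76055 matched), and 94.1% of 51165 protein-coding targets had exactly the annotated coding length, so untranslated regions were mostly not counted. Estimated counts were summed per gene and rounded, and the deposited TPM were summed per gene.

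For 4OHT against EtOH, counts were filtered with filterByExpr on the arms, scaled with TMM and fitted in edgeR 4.0.16 with terms for cell type label and arm. Its quasi-likelihood test is two-sided, and a call means a Benjamini-Hochberg adjusted p under 0.05 among all tested genes. The cell type term is the block, and the fit left 2 residual degrees of freedom and 9.23 prior ones. Cell type labels were contrasted in the same fit. SE is the absolute log2 fold change over the root of the F statistic. The cell type labels pair the libraries, and within the fibroblast, lymphoma and sarcoma pair the correlation of deviations from the mean of each arm was 0.0324, 0.139 and 0.141. Within pairs, ratios of CPM have 95% Clopper-Pearson intervals, and intervals and floors (3 counts) cover counting error only. DESeq2 1.42.0 and limma 3.58.1 on log2(TPM + 1) and log2(TPM + 0.1), R 4.3.3 and Python 3.11.15 were also used.

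The members, the gene lists and the tests were chosen with earlier results of these data known. Named are the Hox genes with a mean of 1 TPM in either arm or a call, the rest by range and count, and, of other lists, called genes and extremes. Values of 1 Hox gene and 2 other listed genes are not reported here, though they stay in the counts, sums and medians.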

Additional observations from a re-analysis of the deposited data

How the results depend on the processing

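Under RLE size factors, without a filter on low counts, with protein-coding genes only and without the cell type block (no replicate block), edgeR called the same number of Hox genes lower, 10, and in all these fits 0 higher. The count was 4 of 24 with DESeq2 (Hoxa9, Hoxa10, Hoxc4 and Hoxc6; 14.4% of all genes lower), 2 of 18 with limma on log2(TPM + 1) (6.49%), 3 of 18 on log2(TPM + 0.1) (6.38%), 0 of 31 on log2(TPM + 1) without a filter (1.24%), and 7 to 8 of 24 when 1 library was left out. Hoxa9, Hoxa10, Hoxc4 and Hoxc6 kept their call without any 1 library. Hoxa10 and Hoxc4 lost it only in unfiltered limma, with adjusted p of 0.105 and 0.0936. The other 6 lost it without some library and Hoxa7 gained one without either sarcoma library (-0.32 and -0.33).

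Genes on in all 6 libraries numbered 18 at 0.5 TPM or 1 CPM, 10 at 2 TPM and 5 at 5 TPM. The 3 contrasts of cell type labels called 0 Hox genes in every alternative that tested any; DESeq2 gave none an adjusted p for sarcoma over lymphoma. Direction turned only in 5 uncalled Hox genes: Hoxa3 on the TPM scale (0.39 with limma on log2(TPM + 1), with or without a filter, and 0.83 on log2(TPM + 0.1)), Hoxd10 (0.0017 with protein-coding genes only, 0.011 and 0.015 on the 2 TPM scales, and -0.056 to 0.0089 leaving out 1 library), Hoxa5 (-0.0296 to 0.29), Hoxc8 (-0.18 to 0.42) and Hoxd11 (-0.17 to 0.31 leaving out 1 library). Among 53 other called genes Ezh2 turned on the TPM scales (0.042 on log2(TPM + 1), with or without a filter, and 0.044 on log2(TPM + 0.1)) and Dlx6 without either sarcoma library (-0.38 to 2.72). Within pairs, Hoxa9 in the lymphoma pair turned to 0.040 on log2(TPM + 0.5). The cause was not tested. Depth limits the low genes, since 13 of 39 had at most 3 counts everywhere.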
